A study of Caenorhabditis elegans with 12 samples.

Results

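The genes described here belong by name to families linked to secreted antimicrobial proteins in the nematode Caenorhabditis elegans. Whether each product is antimicrobial was not tested. The families are the lysozymes (lys), the invertebrate-type lysozymes (ilys), the saposin-like proteins or caenopores (spp) and the antibacterial factors (abf). The others are the caenacins (cnc), the fungus-induced peptides and their relatives (fip and fipr), and the neuropeptide-like peptides nlp-24 to nlp-34. Members were taken by gene symbol and kept where a probe set was annotated to that gene alone. On the array 70 genes had such a probe set, of 17118 genes in all, and they were read by 78 probe sets. The signal of 49 of them was high enough to be tested, among 10844 tested genes, and the other 21 were too dim for a test.

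Innate immunity in the worm rests on proteins secreted into the gut lumen and onto the surface. Lysozymes cleave bacterial cell walls, and caenopores insert into membranes and form pores, both chiefly in the intestine. The abf peptides resemble defensins. The glycine-rich peptides of the nlp and cnc families are made mainly in the epidermis, where wounding and fungal infection are known to induce several of them through p38 MAP kinase or TGF-beta signalling. All of these proteins carry signal peptides and fold in the endoplasmic reticulum (ER).

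Whole L1 larvae of the wild-type strain N2 and of manf-1 mutants with the allele tm3603 were compared. The worm protein MANF-1 belongs to the MANF family of secreted and ER-resident proteins linked to ER stress. Larvae of each genotype were given either DMSO, the vehicle, or tunicamycin, which blocks N-linked glycosylation and thereby causes ER stress. The groups were therefore N2 with DMSO, N2 with tunicamycin, manf-1(tm3603) with DMSO and manf-1(tm3603) with tunicamycin, with 3 arrays each and 12 in all. Larvae in all 4 groups had hatched without bacteria over 24 h before the 5 h exposure, so that no group had fed, and the RNA came from entire animals. The tunicamycin dose is labelled 5, in ug per mL in one label and ug per uL in others. A single allele stands for the mutant, and whether a group's arrays came from different cultures is not stated. The p-values therefore cover only the spread between these arrays, which may be technical. Levels are the deposited log2 signals of Affymetrix probe sets, and a difference of 1 is a 2-fold change. Signals of different probe sets are not compared, because each binds its target with its own strength.

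The treatment registered in its known targets: the ER chaperone gene hsp-4 rose by 3.39 on the log2 scale (SE 0.21, limma adjusted p = 1.15e-06) and hsp-3 rose by 1.93 (SE 0.13, adjusted p = 2.07e-06) in the average over both genotypes. The annotation names 0 probe sets for manf-1, so the deletion itself was not checked. Arrays of one group correlated at Spearman's rho 0.917 to 0.956. The 4 arrays numbered 2 stood apart in the balance of 3′ and 5′ signal. Over 5 control transcripts the signal at the 3′ end minus that at the 5′ end was -0.32 to -0.20 on these arrays. It was 0.02 to 0.38 on the other 8, and the cause of this difference was not tested. Each group holds 1 of the arrays numbered 2, and results are given without these wherever that changed a call. In whole animals fewer cells of a type and less RNA per cell cannot be told apart.

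Of the 49 tested genes, 37 exceeded the background on all 12 arrays, where background is the 95th percentile of 32 bacterial and yeast control probe sets. All 8 tested nlp genes and 12 of 14 tested spp genes did so, against 4 of 6 lys, 3 of 5 ilys, 5 of 6 cnc, 4 of 6 fip and fipr genes and 1 of 4 abf genes. Among the 21 untested genes were lys-7, a lysozyme known for pathogen resistance in adults, abf-1, fip-1, nlp-24 and nlp-32. The spread between arrays of a group, as a pooled SD, had a median of 0.44 over the tested members and 0.51 over all probe sets. The epidermal peptide gene nlp-29 was the most even at 0.17, and spp-18 the least at 1.13.

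**Figure D1:**
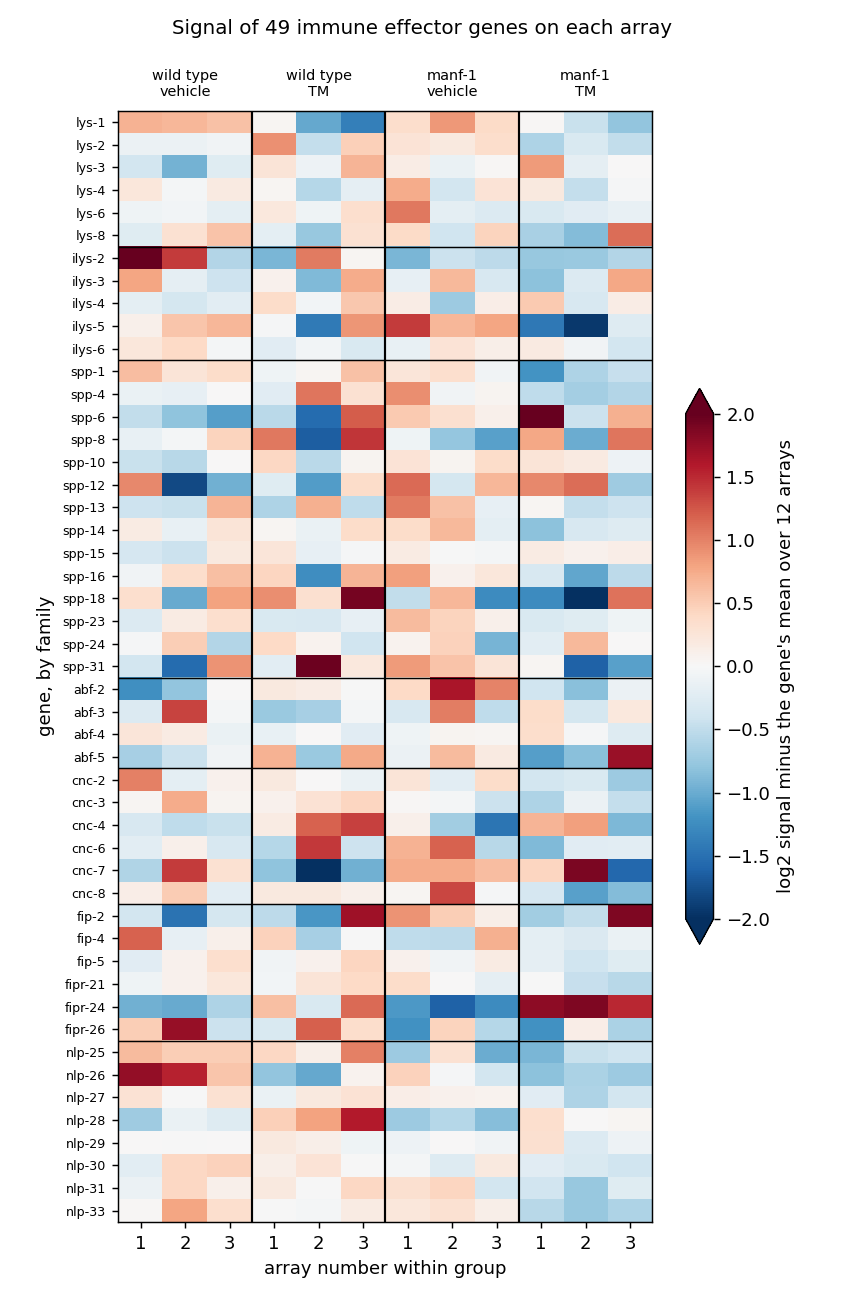
Log2 signal of the 49 tested genes (rows, by family) on each of the 12 arrays (columns, by group and array number), shown as the difference from that gene's mean over all arrays, with colour limits at -2 and 2. The fipr-24 row is high on the 3 arrays of manf-1 mutants with tunicamycin, nlp-26 is high in wild type with vehicle, and the rightmost block is lower than the rest for many spp, cnc and nlp genes.

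Across both genotypes, 4 members changed with tunicamycin: fipr-24 and nlp-28 rose, and lys-1 and nlp-26 fell (limma, adjusted p under 0.05 over all 14709 tested probe sets). Calls were made for 1.9% of all probe sets in this comparison, 1.17% upward and 0.734% downward. Most members lay slightly lower with tunicamycin: 34 of 49 had a difference below 0, with a median of -0.18, while 52.5% of all probe sets were below 0 with a median of -0.02. Within single genotypes fewer passed. In wild type 0 members did, where 0.394% of all probe sets were called, and 6 members had an unadjusted p under 0.05, where 8.02% of all probe sets did. In wild type 23 members were below 0, with a median of 0.02, where 52.4% of all probe sets were below 0. In manf-1 mutants only fipr-24 passed, where 1.07% of all probe sets were called, and 14 members had an unadjusted p under 0.05, against 8.89% of all. There 37 members were below 0, with a median of -0.31, where 51.5% of all probe sets were.

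**Figure D2:**
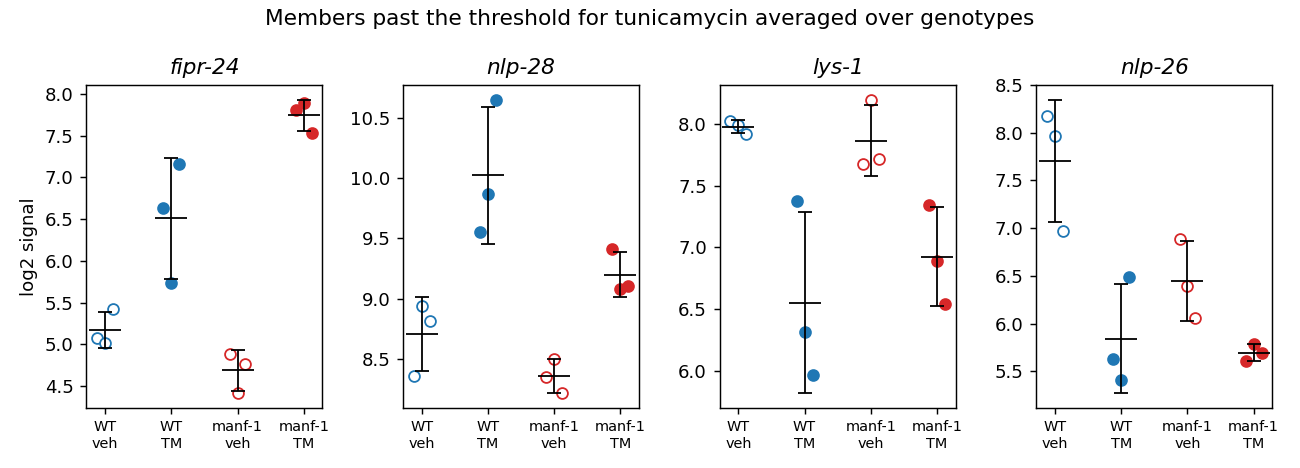
Log2 signal (vertical axes, each with its own range) of the 4 genes past the threshold for tunicamycin averaged over genotypes, by group; circles are arrays, open for vehicle (veh) and filled for tunicamycin (TM), and black bars give mean and SD over 3 arrays. The vehicle and tunicamycin arrays of both genotypes are separate for fipr-24, nlp-28 and lys-1, and 2 vehicle arrays of mutants stand below the highest tunicamycin array of wild type for nlp-26.

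The lysozymes cut peptidoglycan, and lys-1 is an intestinal member of the family. Its log2 signal in wild type was 8.02, 7.99 and 7.92 with vehicle and 7.37, 6.31 and 5.97 with tunicamycin. In manf-1 mutants it was 7.68, 8.20 and 7.72 with vehicle and 7.35, 6.89 and 6.54 with tunicamycin. All 6 treated arrays lay below all 6 vehicle arrays, as for 0.687% of all probe sets. The average change was -1.18 (SE 0.27), which is a 2.27-fold lower signal (adjusted p = 0.0357), with -1.43 in wild type (adjusted p = 0.207) and -0.94 in mutants (adjusted p = 0.435). Leaving out any one array ended it in 10 of 12 cases, all but array 1 of each tunicamycin group, with adjusted p up to 0.113, and it reached 0.28 without the 4 arrays numbered 2. It was also lost without a filter on dim probe sets (adjusted p = 0.0566).

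The other lysozyme genes passed no test. lys-2 and lys-3 lie next to lys-1 on chromosome V, by RefSeq's gene order, and their average differences with tunicamycin were -0.16 and 0.50. lys-4 and lys-8, which like lys-7 are intestinal lysozyme genes, differed by -0.34 (adjusted p = 0.719) and -0.35 (adjusted p = 0.808), and lys-6, at background on most arrays, by -0.08. For lys-2 the direction was opposite in the genotypes: 0.41 in wild type and -0.74 in mutants, an interaction of -1.15 that did not pass (adjusted p = 0.995). Its arrays were 3.53, 3.54 and 3.58 in untreated wild type, 4.58, 3.18 and 4.14 in treated wild type, 3.93, 3.85 and 4.0 in untreated mutants and 3.04, 3.35 and 3.16 in treated mutants. The treated mutants thus lay below the untreated ones without overlap, close to background, whereas treated wild type spanned the untreated values.

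Among the invertebrate-type lysozymes, ilys-5 had the lowest tunicamycin difference in manf-1 mutants. Its arrays read 5.55, 6.00 and 6.11 in untreated wild type, 5.43, 4.02 and 6.32 in treated wild type, 6.85, 6.11 and 6.23 in untreated mutants, and 4.02, 3.52 and 5.19 in treated mutants. Treated mutants were below untreated mutants on every array, and 1 treated wild-type array, numbered 2, was as low as they were. The difference in mutants was -2.16 (SE 0.56, adjusted p = 0.104) and passed only without wild-type tunicamycin array 2 (adjusted p = 0.0387). The other probe sets of the gene gave -2.14 and -2.78. Average differences for the rest of this family lay between -0.64 for ilys-2 and 0.40 for ilys-4, and ilys-3, an intestinal and pharyngeal lysozyme induced by some bacteria, differed by -0.12. ilys-2 was uneven between arrays of a group: untreated wild type gave 6.42, 4.84 and 2.85, and the 6 mutant arrays lay between 2.53 and 3.0, under the background limit of 3.34.

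The saposin-like family includes spp-1, spp-3, spp-5 and spp-12, caenopore genes with known pore-forming or antibacterial products. None of the 14 tested spp genes passed in any comparison. Tunicamycin differences in this family had a median of 0.20 in wild type, with 4 of 14 below 0, and of -0.49 in manf-1 mutants, with 10 of 14 below 0. The interaction, which is the mutants' difference minus that of wild type, was below 0 for 12 of 14 spp genes, against 49.8% of all probe sets. With 32 signal units added before log2, which damps dim probe sets, the medians were 0.14 and -0.20 and the interaction was below 0 for 11 of 14. Single arrays moved these values. Without wild-type tunicamycin array 3 the wild-type median was 0.015 with 7 of 14 below 0, and without any one of the other wild-type arrays that moved it by over 1.5 times it was 0.089 (tunicamycin array 1), 0.11 (vehicle array 1 or 2) or 0.33 (vehicle array 3). The mutant median was -0.79 without mutant vehicle array 3. The interaction was below 0 for 10 of 14 without mutant vehicle array 1 or without wild-type tunicamycin array 3. All treated arrays lay below all untreated ones for 6 of 14 spp genes in mutants, where 8.53% of all probe sets had this order, and for 0 in wild type, where 5.44% did.

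The caenopore gene spp-1 read 10.60, 10.24 and 10.35 in untreated wild type and 9.90, 10.03 and 10.57 in treated wild type. In mutants it read 10.22, 10.31 and 9.90 untreated and 8.78, 9.36 and 9.52 treated. Every treated mutant array lay below the other 9. The difference was -0.93 for tunicamycin in mutants (SE 0.25, adjusted p = 0.123) and -0.95 between genotypes with tunicamycin (adjusted p = 0.528). In wild type it was -0.23 with tunicamycin.

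spp-31 read 6.29, 5.11 and 7.55 in untreated wild type, 6.44, 8.62 and 6.86 in treated wild type, 7.50, 7.21 and 6.90 in untreated mutants and 6.68, 5.04 and 5.56 in treated mutants. Treated mutants lay below untreated mutants, but the untreated wild-type arrays alone spread over more than the gap. Its interaction was -2.44 (adjusted p = 0.995), and -0.81 without the arrays numbered 2. For spp-4 the treated mutants read 3.08, 2.92 and 3.01, under the background limit and below all other arrays, which lay between 3.37 and 4.66. Its interaction was -1.38 (adjusted p = 0.995), and -0.41 with 32 signal units added before log2. spp-18 had the lowest genotype difference of the family with tunicamycin, -1.80 (adjusted p = 0.863), and the widest spread between arrays of a group. spp-12 and spp-15 differed little on average, by 0.12 and 0.15, and the highest average difference in the family was 0.56 for spp-8 (adjusted p = 0.777), whose second probe set gave 0.00.

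Of the defensin-like abf genes, abf-2, which is expressed in the pharynx, had a pattern that turned round with treatment. Its signal was 3.37, 3.83 and 4.62 in untreated wild type and 4.81, 4.75 and 4.60 in treated wild type. In manf-1 mutants it was 5.00, 6.24 and 5.60 untreated and 4.22, 3.77 and 4.49 treated. Untreated mutants thus stood above the other 9 arrays, and treated mutants lay below treated wild type without overlap. The mutant difference was 1.67 with vehicle (adjusted p = 0.888) and -0.56 with tunicamycin (adjusted p = 0.935), an interaction of -2.23 (SE 0.59, unadjusted p = 0.00189, adjusted p = 0.995), or -0.99 with 32 signal units added before log2. Of the pharyngeal markers, 7 of 7 were lower in treated mutants than in treated wild type, with a median of -0.85. For 0 of them the arrays were separate, and 0 passed the threshold. The log2 of their summed linear signals, in which bright markers weigh most, overlapped between these groups. It was 9.51 to 10.9 in treated wild type and 8.20 to 10.4 in treated mutants, with ceh-22 at background. With vehicle 6 of 7 were also lower in mutants, with a median of -0.16, the direction opposite to that of abf-2. The part of these markers in the abf-2 values was not tested. abf-3, abf-4 and abf-5 differed on average by -0.41, -0.10 and 0.16 with tunicamycin.

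The fungus-induced family gave the largest change of all members. fipr-24 read 5.07, 5.02 and 5.42 in untreated wild type and 6.63, 5.73 and 7.16 in treated wild type. In mutants its signal was 4.88, 4.41 and 4.77 with vehicle and 7.81, 7.89 and 7.54 with tunicamycin. The treated arrays lay above the untreated ones in both genotypes, and the treated mutants above all others. Tunicamycin raised it 4.59-fold on average, by 2.20 on the log2 scale (SE 0.27, adjusted p = 0.000368), and 8.33-fold in mutants, by 3.06 (SE 0.38, adjusted p = 0.00082). The change in wild type, 1.34, did not pass (adjusted p = 0.28). The mutants' change exceeded it by 1.72 (SE 0.54, unadjusted p = 0.00697), which did not pass over all probe sets either (adjusted p = 0.995).

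Both fipr-24 calls held in all 20 other settings, the removal of each array and of the arrays numbered 2 included. The probe set is of the kind that may bind related transcripts (suffix _x_at), so signal from a similar gene is not separable from it. Its neighbour on chromosome I by RefSeq order, fipr-22, has no probe set of its own, and the pair of probe sets it shares with fipr-23 gave -0.39 and -0.23. Other members of the family stayed below the threshold, with average tunicamycin differences from -0.27 for fip-4 to 0.23 for fip-2. The second probe set of fip-2 gave 0.46. The mutants' fip-2 signal spread widely, at 8.39, 8.58 and 10.94 with tunicamycin.

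The caenacins, peptides related to the nlp group and in part controlled by TGF-beta signalling from neurons, had 0 of 6 past the threshold. cnc-4 was the member with the highest difference, at 1.11 on average (adjusted p = 0.209). It read 5.65, 5.46 and 5.53 in untreated and 6.14, 7.15 and 7.35 in treated wild type, which did not overlap. Mutants read 6.08, 5.28 and 4.51 untreated and 6.65, 6.79 and 5.08 treated, which did. cnc-2, known for induction by fungal infection, differed by -0.44 (adjusted p = 0.598), and cnc-3, which lies in the same cluster on chromosome V, by -0.13. cnc-7 had the lowest average, -1.07 (adjusted p = 0.454), but its 12 arrays ran from 4.79 to 8.87 and its other probe set gave -0.20. cnc-8 was lower in treated mutants, at 6.11, 5.37 and 5.58, than on the other 9 arrays, which lay between 6.24 and 7.78. Its difference with tunicamycin in mutants was -1.21 (adjusted p = 0.277).

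Of the nlp peptides, 2 of 8 passed for tunicamycin averaged over genotypes, in opposite directions. nlp-28 rose. In wild type it read 8.35, 8.94 and 8.82 untreated and 9.55, 9.87 and 10.66 treated, and in mutants 8.35, 8.5 and 8.22 untreated and 9.41, 9.08 and 9.11 treated. All 6 treated arrays lay above all 6 untreated ones, as for 1.06% of all probe sets, and treated wild type above treated mutants. The average change was 1.08 (SE 0.21, 2.12-fold, adjusted p = 0.0135), with 1.32 in wild type (adjusted p = 0.0805) and 0.85 in mutants (adjusted p = 0.302). The call held without any single array and was lost without the 4 arrays numbered 2 (adjusted p = 0.0649). This probe set, too, has the suffix _x_at.

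nlp-28 sits in a row of related genes on chromosome V, in the RefSeq order nlp-34, nlp-31, nlp-30, nlp-29, nlp-28 and nlp-27, of which 5 were tested and nlp-34 has no probe set of its own. The neighbours encode peptides of the same glycine- and tyrosine-rich kind, and nlp-29 is the standard reporter of epidermal wounding and fungal infection. All 5 tested genes of the row are read by probe sets with the suffix _x_at, so signal from a similar gene is not separable in any of them. The signal read for nlp-29 hardly moved: its 12 values lay between 10.63 and 11.23. Its difference was 0.06 with a 95% interval of -0.21 to 0.32 (limma adjusted p = 0.92). nlp-27, on the other side, differed by -0.29 with an interval of -0.54 to -0.03 (adjusted p = 0.359), nlp-30 by -0.18 and nlp-31 by -0.26. Within each array, the log2 signal of nlp-28 minus that of nlp-29 was -2.62 to -1.97 with vehicle and -1.82 to -0.17 with tunicamycin. Against nlp-27 it went from -3.14 to -2.26 with vehicle to -1.73 to -0.84 with tunicamycin. The vehicle and tunicamycin ranges did not overlap for these pairs or for nlp-30 and nlp-31, so the signals changed unequally along the row. nlp-28 was singled out by its own rise on these same arrays, so these ranges are no separate support for that rise.

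**Figure D3:**
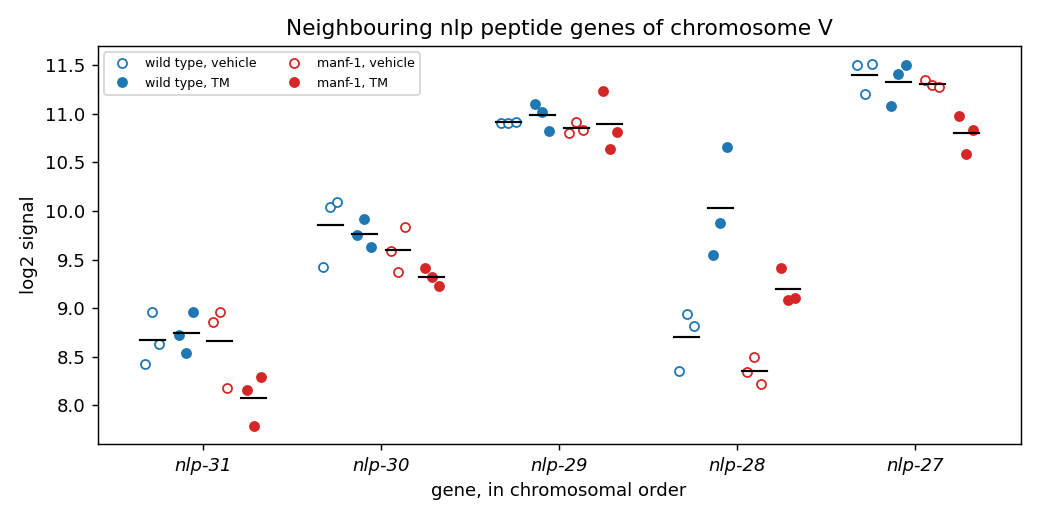
Log2 signal (vertical axis) of the 5 tested genes of the nlp row on chromosome V, in chromosomal order; each circle is 1 array, blue for wild type and red for manf-1, open for vehicle and filled for tunicamycin (TM), and black lines are means of 3 arrays. Filled circles stand above open ones for nlp-28 only, and heights of different genes are not comparable.

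nlp-26 fell. Its signal in wild type was 8.17, 7.97 and 6.97 with vehicle and 5.63, 5.41 and 6.49 with tunicamycin, and in mutants 6.89, 6.39 and 6.06 with vehicle and 5.61, 5.79 and 5.69 with tunicamycin. Vehicle and tunicamycin arrays did not overlap within either genotype, and untreated wild type stood above all other arrays. The average change was -1.31 (SE 0.29, 2.48-fold, adjusted p = 0.0331), with -1.86 in wild type (adjusted p = 0.0799) and -0.75 in mutants (adjusted p = 0.672). Leaving out one array ended the call in 9 of 12 cases, all but array 3 of wild type with vehicle, of wild type with tunicamycin and of mutants with vehicle, with adjusted p up to 0.0947. Without the arrays numbered 2 it was 0.245, and without a filter on dim probe sets 0.0515. The wild-type value passed without wild-type vehicle array 3 (adjusted p = 0.0448).

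nlp-33, an epidermal peptide induced by fungal infection and sterile injury, read 9.96, 10.72 and 10.27 in untreated wild type, 9.92, 9.89 and 10.09 in treated wild type, 10.16, 10.24 and 10.04 in untreated mutants and 9.38, 9.17 and 9.31 in treated mutants. The treated mutants lay below all other arrays. Its difference was -0.86 with tunicamycin in mutants (SE 0.21, adjusted p = 0.0872) and -0.60 on average (adjusted p = 0.064). The average passed in 1 of 20 other settings, the removal of a single array (limma adjusted p = 0.0405).

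**Figure D4:**
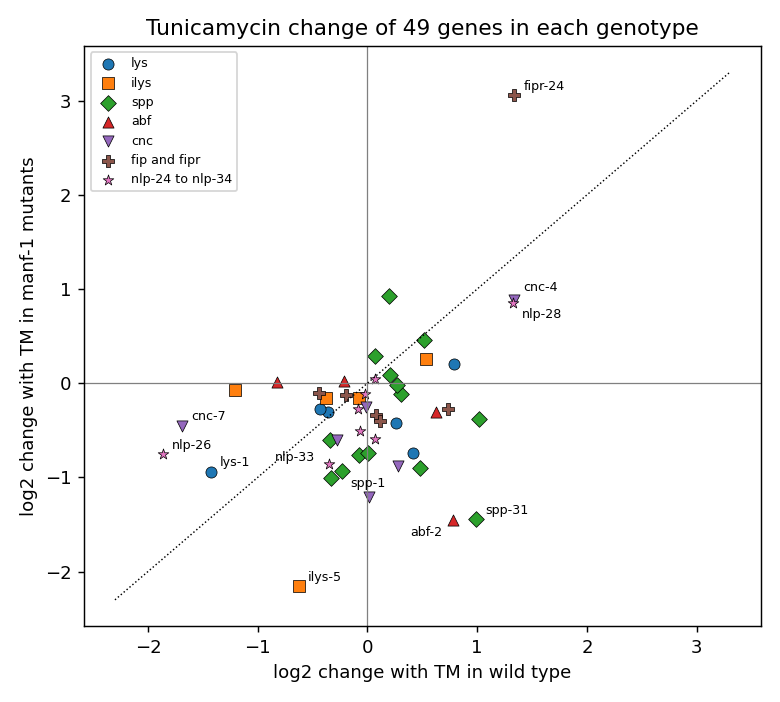
Log2 difference between tunicamycin (TM) and vehicle in wild type (horizontal axis) and in manf-1 mutants (vertical axis) for the 49 tested genes, with a marker for each family and a dotted line where both are equal. fipr-24 is at 1.34 and 3.06, nlp-28 at 1.32 and 0.85, nlp-26 at -1.86 and -0.75, and 37 of 49 points lie below 0 on the vertical axis, against 23 on the horizontal one.

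Between genotypes no member passed. With vehicle 0 of 49 were called, where 0.0068% of all probe sets were, and 4 members had an unadjusted p under 0.05, against 5.23% of all probe sets. With tunicamycin 0 were called, where 0.0408% of all were, and 15 had an unadjusted p under 0.05, against 5.51%. In the average over treatments 0 were called, where 0.0136% of all were, and 10 had an unadjusted p under 0.05, against 5.91%. For the interaction 0 were called, where 0.0068% of all were, and 6 had an unadjusted p under 0.05, against 4.62%. Mutants were lower with vehicle in 26 of 49 members, where 47.8% of all probe sets were, and with tunicamycin in 33, where 46.6% were. Averaged over treatments they were lower in 31, where 46.6% were. The median genotype difference of members was -0.01 with vehicle and -0.38 with tunicamycin, where the medians of all probe sets were 0.02 and 0.03. With 32 signal units added before log2 the members' median with tunicamycin was -0.12.

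Between genotypes 8 of 8 nlp peptides were below 0 with vehicle, with a median of -0.21, and 8 of 8 with tunicamycin, with a median of -0.59. Hypodermal markers were mostly below 0 as well, 8 of 12 with vehicle (median -0.24) and 8 of 12 with tunicamycin (median -0.36). The part of this tissue in the nlp values was not tested. The probe sets of nlp-27, nlp-28, nlp-29, nlp-30 and nlp-31 have the suffix _x_at, so signal shared between these genes is not separable. With tunicamycin 7 of 8 were below 0 without the arrays numbered 2, without mutant array 2 or without wild-type array 3. With vehicle 6 of 8 were below 0 without wild-type array 2 and 7 of 8 without mutant array 3, and the median was -0.41 without wild-type array 1. In treated larvae 6 of 8 had all mutant arrays below all wild-type arrays, where 5.09% of all probe sets did. The lowest was nlp-25, which read 6.42, 6.29 and 6.28 in untreated wild type, 6.21, 5.91 and 6.80 in treated wild type, 5.07, 6.10 and 4.79 in untreated mutants and 4.88, 5.35 and 5.39 in treated mutants. Mutant arrays lay below wild-type ones within each treatment, and mutant array 2 with vehicle reached above the lowest treated wild-type array. Its average difference was -1.05 (SE 0.28, unadjusted p = 0.00225, adjusted p = 0.502). The difference of nlp-29 between genotypes was -0.08. cnc-3 was the only member whose 6 mutant arrays all lay below its 6 wild-type arrays, where 0.156% of all probe sets did and 0.068% had the reverse order, and its difference was -0.55 (adjusted p = 0.711). At the other end, spp-6 was 1.09 higher in mutants on average (adjusted p = 0.809).

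The 12 arrays were also compared by which group stood apart from the other 9 arrays, a count chosen after the values were seen. In 7 of 49 members, 14.3%, the 3 arrays of treated mutants were the lowest, where 1.27% of all probe sets had this pattern: cnc-2, cnc-8, nlp-27, nlp-33, spp-1, spp-4 and spp-14. Treated mutants were the highest for fipr-24 only, where 1.28% of all probe sets had that pattern. Untreated wild type stood highest for nlp-26 (0.693% of all probe sets) and lowest for lys-3 (0.789%). Treated wild type stood highest for nlp-28 (0.224%) and lowest for 0 members (0.313%). Untreated mutants stood highest for abf-2 (0.687%) and lowest for fipr-24 (0.394%). For spp-14 treated mutants read 6.30, 6.80 and 6.86, just under the next array at 6.92. For nlp-27 they read 10.98, 10.59 and 10.84, under 11.08 to 11.51 elsewhere. In cnc-2 they read 4.07, 4.13 and 3.70, just under the lowest other array at 4.23.

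**Figure D5:**
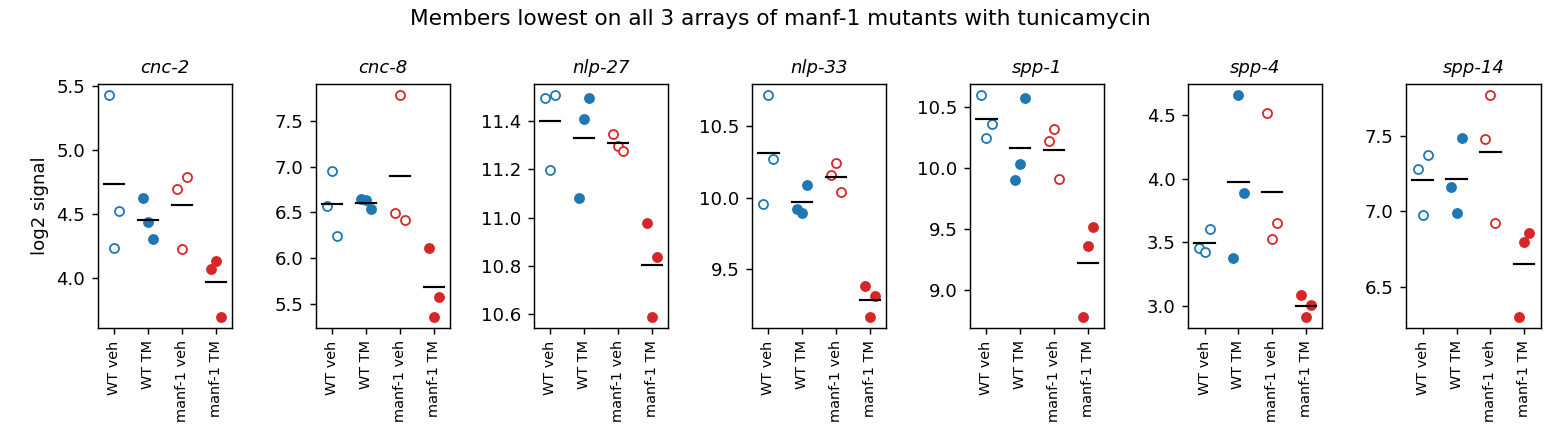
Log2 signal (vertical axes, each with its own range) by group for the 7 genes that were lowest on all 3 arrays of manf-1 mutants with tunicamycin; circles are arrays, open for vehicle (veh) and filled for tunicamycin (TM), blue for wild type and red for manf-1, and black lines are means of 3 arrays. The genes were picked for this order, and the picture shows how close the next arrays come, closest in spp-14.

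The same arrays enter both comparisons of treated mutants, which therefore share them. Against untreated mutants, treated mutants were lower without overlap in 16 members, where 8.53% of all probe sets were, and higher in 2, where 7.55% were. Against treated wild type, they were lower without overlap in 15, where 5.09% were, and higher in 1, where 5.16% were. In wild type, treated arrays were lower in 4 members, where 5.44% were, and higher in 5, where 5.43% were. With vehicle, mutants were lower than wild type in 4, where 4.44% were, and higher in 6, where 5.95% were. With the arrays numbered 2 left out, and so 2 arrays against 2, treated mutants were the lowest group in 12 members, where 5.77% of all probe sets were. None of the 7 genes passed the threshold singly in any comparison over all 12 arrays.

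Most tissue markers of gut and epidermis also had differences below 0 with tunicamycin, and this was not particular to these tissues. Of 8 neuronal markers, 7 were below 0 in each genotype, with medians of -0.20 in wild type and -0.15 in mutants. Body wall muscle had 2 of 5 markers below 0 in each genotype. The pharynx had 1 of 7 in wild type and 5 of 7 in mutants. Of 11 intestinal markers, 9 in wild type and 8 in mutants were below 0 with tunicamycin, with medians of -0.18 and -0.26, and the protease gene asp-1 fell by 1.10 on average (adjusted p = 0.0116). The log2 of the intestinal markers' summed linear signals was 11.79 to 12.08 in untreated and 10.95 to 11.49 in treated wild type. In mutants it was 11.48 to 12.09 untreated and 11.01 to 11.09 treated. Of 12 hypodermal markers, 10 in wild type and 12 in mutants were below 0, with medians of -0.42 and -0.63 and 0 past the threshold on average. The log2 of their sum was 12.85 to 13.46, 12.67 to 12.92, 12.88 to 13.23 and 12.39 to 12.68 in the same order. No intestinal or hypodermal marker was at background on average. Treated mutants lay below untreated mutants without overlap for 5 of 11 intestinal and 4 of 12 hypodermal markers, where 8.53% of all probe sets did. The same held for 0 of 7 pharyngeal and 0 of 8 neuronal markers. Treated wild type lay below untreated wild type for 1 of 11 intestinal and 4 of 12 hypodermal markers. Against treated wild type, treated mutants were lower without overlap for 2 of 11 and 1 of 12. In wild type the intestinal sums of treated arrays lay below those of untreated arrays, and the hypodermal sums of treated and untreated arrays overlapped. In mutants the sums of treated arrays lay below those of untreated arrays for both tissues. The part of the tissues in the members' values was not tested.

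Among genes upstream of the effectors 1 passed for tunicamycin. Of 38 regulators of epidermal and intestinal immunity, 37 were tested, all but nsy-1 of the p38 cascade. Among those tested were tir-1, sek-1 and pmk-1 of that cascade, the epidermal factors sta-2 and snf-12 and the TGF-beta ligand dbl-1. On average 1 rose with tunicamycin, xbp-1, which encodes a transcription factor of the unfolded protein response (0.94, SE 0.17, limma adjusted p = 0.00847). The next by p were ire-1, its activating nuclease, at 1.08 (adjusted p = 0.201), dbl-1 at -1.0 (adjusted p = 0.245) and the insulin receptor gene daf-2 at 0.42 (adjusted p = 0.353). Their median was -0.10. Of 25 other infection-response genes, 12 were tested and 1 fell, C32H11.4, by 1.34 (adjusted p = 0.0416). In mutants 5 of these 12 had treated arrays below untreated ones without overlap, where 8.53% of all probe sets did, and their median was -0.60. In wild type 0 did, where 5.44% of all did, and their median was -0.09.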

How the data were processed

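The table analysed holds the authors' deposited log2 signals of 22625 Affymetrix probe sets on 12 arrays. The log scale was inferred from the range of the values. MAS5 appears in the submitters' processing notes with no stated role, and the step that made the deposited log2 values is not given in the sources used here. Array medians lay between 3.96 and 4.05, so no further normalization was applied, and a scaling of this kind assumes that most transcripts keep their level. Of 22548 probe sets that are no controls, 14709 exceeded their own array's 40th percentile on at least 3 arrays and were tested. Names came from the platform annotation, and 69 of 70 members matched the RefSeq gene table of WBcel235 by gene number. Coordinates are left out because the values come with no build. For a gene with several tested probe sets, which held for 5 members, the brightest was used. Of the probe sets used for members, 12 have the suffix _x_at and may bind related transcripts, those of cnc-2 and cnc-3 included.

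A model of the 4 group means over all 12 arrays was fitted in limma 3.58.1 (lmFit, eBayes with trend; R 4.3.3). Residual degrees of freedom were 8 and prior ones 5.93. The 7 two-sided contrasts were treatment in each genotype, genotype in each treatment, their averages and the interaction. Adjusted p is Benjamini-Hochberg over all 14709 probe sets of a contrast, with a threshold of 0.05. Errors of differences are limma's SE. In simulated data for tunicamycin averaged over genotypes, 32% of 50 probe sets changed by 1 were called and 84% of 50 changed by 2. For tunicamycin in wild type alone, 6% of those changed by 1 were called, 58% of those changed by 2 and 40% of 50 changed by -2. Members and gene lists were chosen with earlier results of these data known. Genes were named where past the threshold, among the 3 smallest p-values of a direction in a contrast, at the extremes of a family, or on a fixed list of known effectors, and the text gives part of them. Same-numbered arrays had correlations of -0.08 to 0.23 between their deviations, over 0.1 in 6 of 18 pairs, so the numbers were not used as pairs. Alternatives are listed in the closing section.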

Additional observations from a re-analysis of the deposited data

Results flagged for a closer look

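The treatment response of fipr-24 differed between the genotypes by an interaction of 1.72 on the log2 scale: in the mutants minus wild type comparison, the untreated arrays lay one way and the treated arrays the other, with no overlap in either. The interaction test of limma gave an unadjusted p of 0.00697 and an adjusted p of 0.995. abf-2 had the opposite order, with an interaction of -2.23, an unadjusted p of 0.00189 and an adjusted p of 0.995, and its interaction was -0.99 with 32 signal units added before log2. Neither difference passed the threshold over all probe sets.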

How the results depend on the processing

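The alternatives were quantile normalization, 32 signal units added before log2, eBayes without trend, no filter or one at the 60th percentile, the replicate number as a block, averaging the probe sets of a gene, leaving out each array, and leaving out the 4 arrays numbered 2, which earlier results of these data had shown to stand apart. No value changed sign past a threshold in any of them. Members called for tunicamycin on average were 4, with 2 without a filter, 1 without the arrays numbered 2 and 2 to 4 without single arrays. In wild type 0 became 1 with the 60th percentile filter and 0 to 1 without single arrays, and in mutants 1 became 1 to 2. Leaving out the arrays numbered 2 lowered the calls over all probe sets from 280 to 141 on average, from 158 to 76 in mutants and from 58 to 35 in wild type, with 165 to 244, 79 to 178 and 41 to 61 without single arrays. Genotype calls over all probe sets were few. With tunicamycin 6 became 1 with added units, 0 without trend, 11 with the 60th percentile filter, 1 without a filter, 3 with the replicate block, 0 without the arrays numbered 2 and 0 to 3 without single arrays. With vehicle 1 became 0 with added units or without the arrays numbered 2, and 0 to 2 without single arrays. The interaction's 1 became 0, 2 with the replicate block, 0 and 0 to 2. On average 2 became 1 with added units, no filter or the replicate block, 0 without the arrays numbered 2 and 1 to 3 without single arrays. The replicate block changed no member's call, and 8 of 12 arrays correlated best with their own number, a hint from the data and not from the design. With added units the members' median was -0.12 between genotypes with tunicamycin, -0.07 on average and -0.20 for the interaction, which was -0.47 to -0.22 without single arrays. With 3 arrays a group, changes of 1 are mostly missed.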

Other observations

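Some effector genes were measured only together with another gene, and 6 of 12 such probe sets were bright enough to test, with 0 past the threshold in any comparison. The caenopore gene spp-5, whose product is known to kill bacteria, shares its probe set with T08A9.13, and their joint difference with tunicamycin was -0.08 on average. The probe set shared by spp-2 and spp-3 differed by 0.29.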
